A study of Mus musculus with 24 samples.

Results

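Protease inhibitor genes of the mouse Serpin A cluster were followed in liver: Serpina1a, Serpina1b, Serpina1c, Serpina1d, Serpina1e and Serpina3k, chosen by name as 6 of the 35974 gene symbols in the deposited expression table. RNA-seq had been made from liver of mice of strain C3H/HeJ, in 24 libraries. TGA libraries carry the genotype label transgenic and WT libraries the label wild type, and each title adds a number from 1 to 4 and a class of 2, 4 or 8. The 6 groups of genotype and class held 4 libraries each: TGA class 2, WT class 2, TGA class 4, WT class 4, TGA class 8 and WT class 8. The labels name neither the transgene, nor its promoter, nor what the class means. The series title concerns polyploid hepatocytes in chronic liver disease, so reading the class as DNA content is an inference from the title. Age, sex and treatment are not in the labels, nor is whether the libraries of a group came from separate animals. All p-values therefore reflect only how far these libraries differ among themselves, and that variation may be technical.

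Serpins are suicide inhibitors: a protease cuts the exposed reactive centre loop of the serpin and is then trapped in a covalent complex with it. Hepatocytes secrete the Serpina1 proteins, the alpha-1-antitrypsins. Alpha-1-antitrypsin is known for restraining neutrophil elastase in plasma, but which proteases each mouse copy inhibits was not examined here. A single gene codes for this protein in humans, whereas the mouse carries a set of tandem copies whose number is known to differ between inbred strains. Serpina3k, also called contrapsin, belongs to the neighbouring expanded Serpina3 group and is likewise a plasma serpin made by hepatocytes. In RefSeq's mouse annotation all 6 genes lie on chromosome 12, with Serpina1b, Serpina1d, Serpina1a, Serpina1c and Serpina1e next to each other in this order and Serpina3k further along the same cluster.

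The 5 Serpina1 copies differ little in sequence, which limits how far a 75 bp read can tell them apart. Over 1242 aligned bases of their open reading frames (GENCODE M21 transcripts of strain C57BL/6J), pairs of copies were between 96.3% identical (Serpina1b with Serpina1e) and 98.5% identical (Serpina1a with Serpina1c), and 86 positions differed in at least 1 copy. Serpina1e and Serpina3k shared 58.8% of the aligned positions of their reading frames. The 60 bases with the most differences held 18 of the 86 positions and lie near the 3′ end of the frame, the end that codes for the reactive centre loop in this family. They are shown because reads over them can separate the copies, with capitals at the positions that are not the same in all 5.
Serpina1a: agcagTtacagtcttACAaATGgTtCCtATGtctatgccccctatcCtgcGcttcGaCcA
Serpina1b: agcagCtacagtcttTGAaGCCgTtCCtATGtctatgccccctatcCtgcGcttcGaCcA
Serpina1c: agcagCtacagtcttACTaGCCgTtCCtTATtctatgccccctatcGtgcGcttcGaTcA
Serpina1d: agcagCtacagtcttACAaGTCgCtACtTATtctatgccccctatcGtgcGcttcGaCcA
Serpina1e: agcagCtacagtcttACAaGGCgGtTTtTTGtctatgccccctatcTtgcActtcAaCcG

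The start regions of the copies were also close to identical, and are shown to set out how alike the copies are at their starts. RefSeq promoter windows of GRCm38.p6 (250 bases before to 50 bases after the annotated start) matched 5 of the 6 genes by symbol, all on the minus strand. Pairs of these windows were 91.4% to 97.6% identical over their overlap. The longest run of bases held by all 5 windows was 59 bases. Each stretch below begins with that run and goes on to 96 bases, with capitals at the 7 positions where the 5 copies are not all the same. The window of Serpina3k is not shown.
Serpina1a, chr12:103863584-103863679: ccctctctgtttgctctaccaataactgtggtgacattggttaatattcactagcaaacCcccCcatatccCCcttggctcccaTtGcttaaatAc
Serpina1b, chr12:103738159-103738254: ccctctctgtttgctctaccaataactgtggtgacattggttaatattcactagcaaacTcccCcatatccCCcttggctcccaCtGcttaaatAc
Serpina1c, chr12:103904921-103905016: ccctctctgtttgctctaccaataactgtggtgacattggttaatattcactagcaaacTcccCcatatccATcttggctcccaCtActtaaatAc
Serpina1d, chr12:103773593-103773688: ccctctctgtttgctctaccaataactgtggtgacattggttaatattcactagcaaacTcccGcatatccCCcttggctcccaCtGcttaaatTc
Serpina1e, chr12:103956919-103957014: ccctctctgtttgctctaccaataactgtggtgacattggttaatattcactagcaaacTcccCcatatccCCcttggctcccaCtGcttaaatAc

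How much of each transcript is unique was counted in windows of 75 bases, the read length. Of the windows of the Serpina1c transcript, 73.6% recur without a mismatch in a transcript of another gene, against 57.5% for Serpina1a, 37.1% for Serpina1d, 25.1% for Serpina1b and 20.3% for Serpina1e. Allowing 2 mismatches, between 61.4% (Serpina1b) and 88.4% (Serpina1c) of the windows recur in another of the 6 genes. For Serpina3k, 7.36% recur exactly, all in Serpina3m, and none (0%) within 2 mismatches of a Serpina1 copy. Only the 6 genes were searched with mismatches, so near matches of Serpina3k in other Serpina3 genes were not counted. Given the shared windows, the values of single Serpina1 copies are uncertain. How the authors' counting divided shared reads is not given in the sources used here, and the libraries come from another strain than the reference. How far this touches Serpina3k was not measured. The sum over the 5 Serpina1 copies is given beside the single copies.

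**Figure D1:**
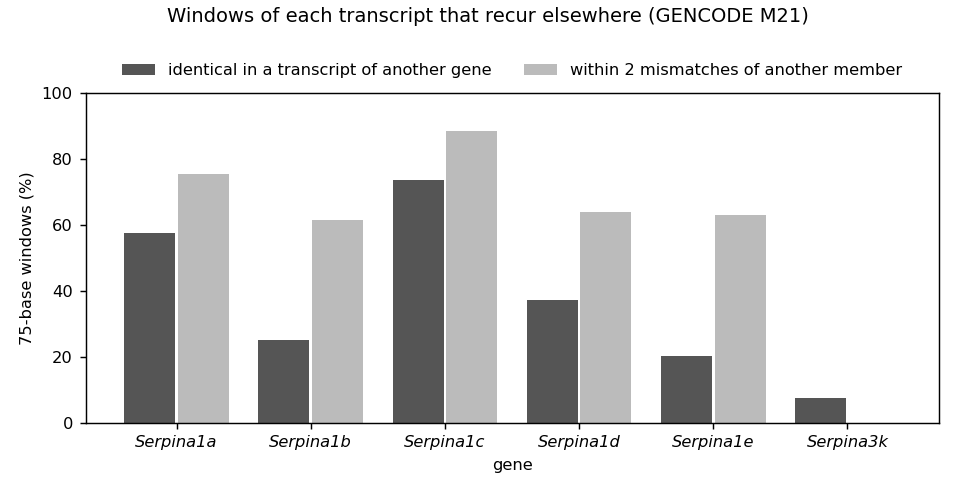
Share of the 75-base windows of each member's transcript (y axis, %) that are identical in a transcript of another gene (dark bars) or within 2 mismatches of another of the 6 genes (light bars). Serpina1c is the least unique at 73.6% and 88.4%, Serpina1e the most unique Serpina1 copy by exact matches at 20.3%, and the light bar of Serpina3k is at 0. Genes outside the 6, such as other Serpina3 genes, were not searched with mismatches.

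The libraries differed widely in how many genes they recorded. Between 1624 and 9096 genes were above 0 in the TGA libraries (median 2863.5) and between 2071 and 15147 in the WT libraries (median 3175). In the fit below 4875 genes were tested, and 54.1% of their values were 0. Genes that every cell uses were often listed at 0, such as Gapdh in 19 of 24 libraries and Actb in 14, and Alb, albumin, was at 0 in 5, so a gene listed at 0 cannot be called silent. The depth is unknown, because the values are normalised, and no counting interval is given. Hepatocyte markers were present in every library, with 9 to 20 of 21 above 0 in TGA libraries and 6 to 21 in WT libraries. In bulk libraries such as these, fewer cells of a type and less RNA per cell cannot be told apart. Markers of immune and blood cells were recorded in few libraries. Of 10 macrophage markers, 3 were above 0 in some TGA and 6 in some WT library, and Cd5l, Vsig4, Timd4 and C1qa were at 0 in all 24. Of 7 neutrophil markers, 2 were above 0 in some TGA and 4 in some WT library, and Ly6g, Camp and Retnlg were at 0 in all 24, as were the globin genes.

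Serpina1e was recorded in each of the 12 TGA libraries but in 7 of 12 for WT. All levels that follow are log2(normalised count + 1), in the order of numbers 1 to 4. In class 2 it read 8.50, 10.91, 10.61 and 10.95 in TGA, against 8.60, 6.20, 6.03 and 0 in WT. In class 4 it read 6.73, 6.19, 7.68 and 7.56 in TGA, against 9.33, 0, 6.11 and 0 in WT. In class 8 it read 5.63, 9.33, 6.93 and 10.52 in TGA, against 0, 3.28, 5.97 and 0 in WT. The lowest TGA library lay below the highest WT library in every class, so the groups overlapped within each class. WT number 1 was the highest WT library in classes 2 and 4 and was listed at 0 in class 8, and WT number 4 was listed at 0 in all 3 classes.

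Serpina3k had a similar pattern, recorded in each of the 12 TGA libraries but in 8 of 12 for WT. In class 2 it read 8.10, 9.55, 10.60 and 9.30 in TGA, against 8.38, 0, 4.24 and 0 in WT. In class 4 it read 6.42, 6.64, 6.23 and 7.11 in TGA, against 8.08, 1.97, 6.72 and 5.94 in WT. In class 8 it read 6.55, 8.13, 4.65 and 7.70 in TGA, against 0, 7.14, 0 and 3.81 in WT. The class 4 groups were the closest, with all 4 WT libraries above 0 there and the highest of all 8 values in WT number 1.

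Serpina1b was above 0 in 9 of 12 TGA libraries and in 3 of 12 WT libraries. In class 2 it read 5.54, 7.72, 7.42 and 7.74 in TGA, against 6.90 in WT number 1 and 0 in the other WT libraries. In class 4 it read 7.06 in TGA number 4 and 0 in the other TGA libraries, against 7.05 and 3.94 in WT numbers 1 and 2 and 0 in the other WT libraries. In class 8 it read 5.94, 6.37, 5.55 and 6.33 in TGA and was listed at 0 in all 4 WT libraries. Class 8 was the only class in which the 2 genotypes did not overlap for any of the 6 genes, and Serpina1b the only gene.

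The remaining copies were mostly listed at 0. Serpina1d was above 0 in 7 of 12 TGA libraries (highest 6.39) and in 3 of 12 WT libraries (highest 5.25). Within class 2 it read 3.30, 6.27, 6.39 and 6.25 in TGA, against 5.25 in WT number 1 and 0 in the other WT libraries. Serpina1c was above 0 in 5 TGA libraries (highest 5.60) and in 2 WT libraries (highest 3.97), both of WT number 1. Serpina1a was above 0 in 4 TGA libraries and in 2 WT libraries, again both of WT number 1 (highest 4.70). Its 2 highest values were 6.89 and 6.77, in TGA number 1 of classes 4 and 2. TGA number 1 thus differed from the other TGA numbers in which copies it recorded, having the highest Serpina1a, no Serpina1c in any class and the lowest Serpina1e in classes 2 and 8.

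**Figure D2:**
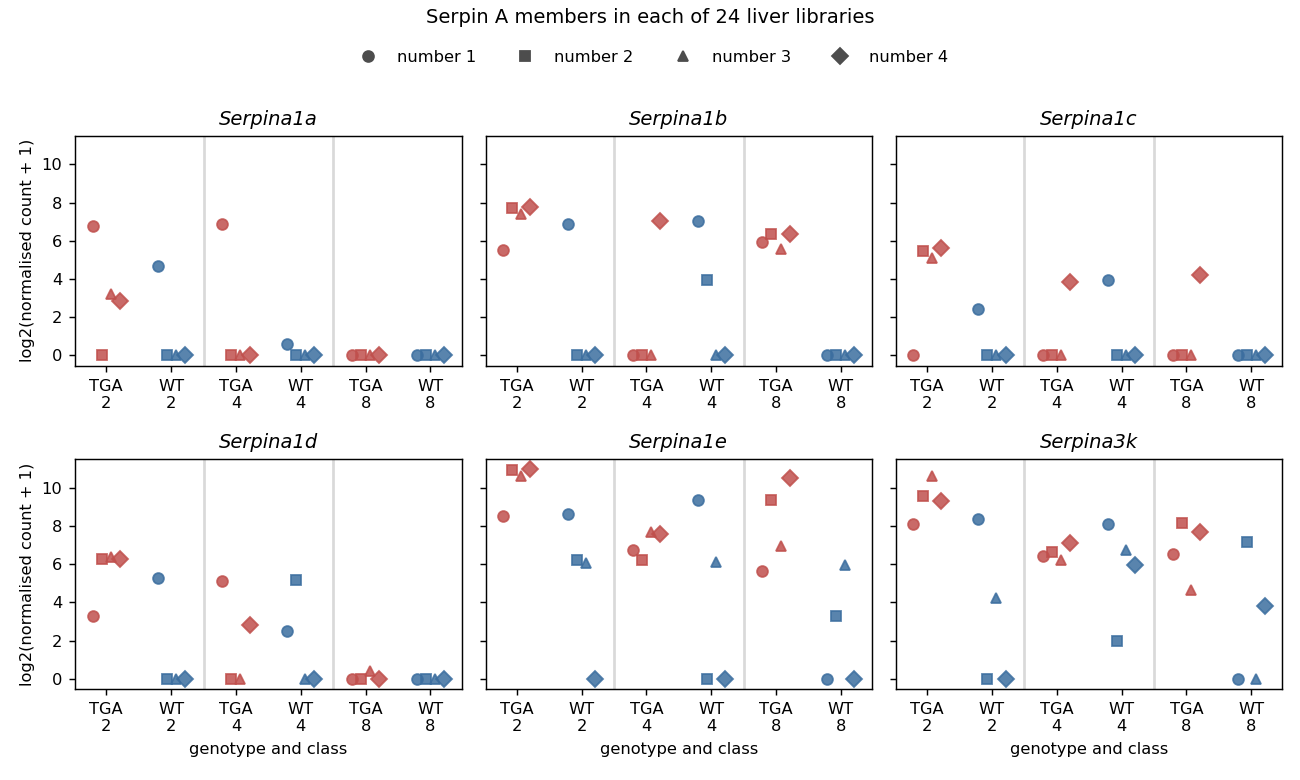
Each member's level in each library, as log2(normalised count + 1) on the y axis, by genotype and class on the x axis (TGA red, WT blue), with a marker shape for each number. Each of the 12 TGA points lies above 0 for Serpina1e and Serpina3k, and most WT points of Serpina1a to Serpina1d lie at 0. The exceptions are WT number 1 in classes 2 and 4 and, for Serpina1b and Serpina1d, WT number 2 in class 4.

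To compare levels between genes, values were divided by transcript length. Per kb, Serpina1e was the highest of the 6 genes in 9 of 12 TGA libraries and in 5 of 12 WT libraries, Serpina3k in 2 and 4, and all 6 genes were listed at 0 in 2 WT libraries (WT number 4 class 2 and WT number 1 class 8). The median level of Serpina1e was 179 normalised counts per kb in TGA and 22.4 in WT. For Serpina3k these medians were 83.7 and 7.53, and for Serpina1b 39.6 in TGA and 0 in WT. Medians of Serpina1a and Serpina1c were 0 in both genotypes. Without division by length, Serpina1e supplied between 41% and 100% of the summed normalised count of the 5 copies in TGA libraries (median 84.7%). In WT it supplied all of the sum in 5 of the 8 libraries in which the sum was above 0 and none of it in WT number 2 class 4. At least 2 copies were above 0 in 10 of 12 TGA libraries, against 3 of 12 WT libraries.

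The genotype difference over all classes was tested on the mean of the 3 classes for each genotype and number, 4 TGA means against 4 WT means. Serpina1e had means of 6.95, 8.81, 8.40 and 9.68 in TGA numbers 1 to 4, against 5.98, 3.16, 6.04 and 0 in WT, so the genotypes did not overlap. In TGA it rose, with a log2 difference of 4.67 (SE 1.03) and a limma adjusted p of 0.00495 over 4875 genes. Its own spread would give an SE of 1.54, because limma's SE rests mainly on the spread pooled over genes, and the exact two-sided permutation p was 0.0286, the smallest that 4 against 4 allows. Serpina1e was the 1 member past the threshold of 0.05, where 0.246% of all tested genes passed upward and 0.246% downward. At an unadjusted p under 0.05, 3 members were higher (Serpina1b, Serpina1e and Serpina3k) and 0 lower, against 3.65% and 5.23% of all genes. Serpina1b reached the level required for testing in 9 TGA but 3 WT libraries, so nothing is read from this count. The call of Serpina1e was lost without WT number 4, in which it was listed at 0 in all 3 classes (difference 3.40, limma adjusted p = 0.124). Leaving out TGA number 4 lost the call too (limma adjusted p = 0.0505). It was also lost with a prior that does not follow the mean level (adjusted p = 0.144) and with no filter on low values (adjusted p = 0.346).

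Serpina3k did not pass this test, although its genotypes did not overlap either. Its means were 7.02, 8.10, 7.16 and 8.04 in TGA, against 5.49, 3.04, 3.65 and 3.25 in WT, a difference of 3.72 (SE 1.03, limma adjusted p = 0.0676, exact permutation p = 0.0286). Its own spread would give an SE of 0.63, below limma's, whereas that of Serpina1e was above limma's. Means that did not overlap and were higher in TGA were found for 2 of the 6 members, Serpina1e and Serpina3k, and for 0.944% of all tested genes. Without WT number 1 the adjusted p of Serpina3k was 0.0112 and that of Serpina1b 0.0119 (limma), and 3 members passed instead of 1. Calls over all genes rose as well, to 100 of 4227 tested from 24 of 4875. Serpina1b had a difference of 3.48 (SE 1.07, limma adjusted p = 0.138, exact permutation p = 0.0857), with means of 3.82, 4.70, 4.32 and 7.04 in TGA, against 4.65, 1.31, 0 and 0 in WT.

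Serpina1a, Serpina1c and Serpina1d had differences of 1.20, 1.48 and 1.47 with limma adjusted p between 0.587 and 0.615. For these copies and Serpina1b, 4 or more TGA libraries but fewer than 4 WT libraries reached the level required for testing, so they entered the test through TGA alone. That all 6 members had higher means in TGA is therefore no support for a shared direction. The median difference of the 6 was 2.48, against 0.11 over all tested genes, of which 54.7% were higher in TGA. The summed Serpina1 level had number means of 7.94, 8.95, 8.64 and 10.07 in TGA, against 6.27, 5.05, 6.04 and 0 in WT. In a fit with 1 summed row it rose by 4.56 (SE 0.99, limma adjusted p = 0.00355), close to the value for Serpina1e alone. Its own spread would give an SE of 1.54. Serpina1e supplied most of the sum in TGA libraries (median 84.7%), so these values are not independent. The sum was at 0 in every library of WT number 4 and was not refitted with numbers left out.

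**Figure D3:**
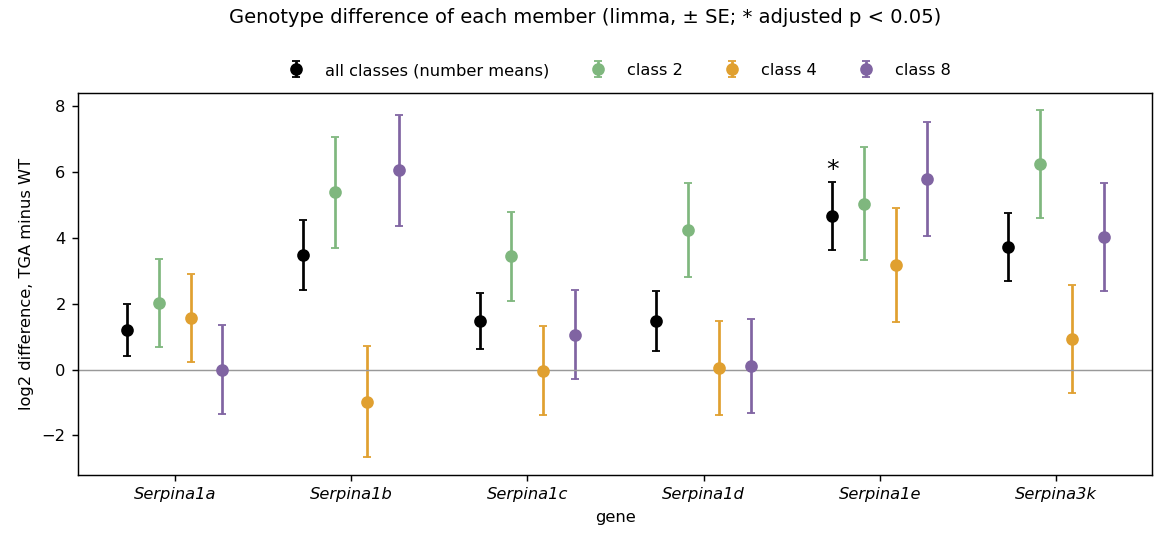
log2 difference of TGA minus WT for each member (y axis, points with SE from limma) over all classes and in each class. Serpina1e over all classes, at 4.67, is the 1 point past the threshold (asterisk), the class 4 points lie below those of class 2 for all 6 members, and the class 8 points of Serpina1b (WT listed at 0) and Serpina1a (both genotypes listed at 0) are fitted values that give no fold, as are those of Serpina1c and Serpina1d (WT listed at 0).

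Within single classes no member passed (0 of 6 in each class, limma adjusted p), where upward calls made up 0.0205% of genes in class 2, 0.0205% in class 4 and 0% in class 8, and downward calls 0.0821%, 0% and 0.0205%. Without adjustment, 5 members in class 2, 0 in class 4 and 3 in class 8 had a limma p under 0.05 and were higher in TGA, against 6.56%, 1.58% and 5.19% of all genes. Of these, Serpina1b, Serpina1c and Serpina1d in class 2 and Serpina1b in class 8 had entered the test through TGA, so nothing is read from the counts. In the same order, 0 members were lower in TGA, against 2.15%, 2.67% and 4.57% of all genes. The difference of Serpina1e was 5.03 in class 2 (SE 1.73), 3.18 in class 4 (SE 1.73) and 5.79 in class 8 (SE 1.73). For Serpina3k it was 6.23, 0.92 and 4.02 (SE 1.64 each). Serpina1b in class 8, where all WT libraries were at 0, had a limma adjusted p of 0.168 and an exact permutation p of 0.0286. A genotype pair without overlap and higher in TGA in class 8 was found for 1.62% of all genes, and for 1 of the 6 members. The class 2 comparison depended on WT number 1, the only WT library of class 2 with Serpina1b or Serpina1d above 0. Without it 4 members passed (Serpina1b, Serpina1d, Serpina1e and Serpina3k, limma adjusted p between 0.00679 and 0.043). Over all genes 68 of 4227 tested then passed, against 5 of 4875 with it. Serpina1b and Serpina1d had entered the test through TGA and were then at 0 in every WT library of class 2. The 4 fullest libraries had more than 7000 genes above 0. They were WT numbers 1 and 4 of class 2, WT number 1 of class 4 and TGA number 3 of class 8. Without them Serpina3k alone passed in class 2, where WT numbers 2 and 3 remained (limma adjusted p = 0.0496). There 15 of 3939 genes passed. In class 8 the same omission removed TGA number 3 alone, and Serpina1b and Serpina1e then passed the threshold (limma adjusted p = 0.0488 and 0.0467). There 31 of 3939 genes passed it, against 1 of 4875 in the main fit.

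Across classes, all 6 members had lower means over both genotypes in class 4 and in class 8 than in class 2, and no member passed in any class comparison. Of all tested genes, 42.2% were higher in class 4 than in class 2 and 43.9% in class 8. Serpina1a and Serpina1c reached the level required for testing in fewer than 4 libraries outside class 2, so they entered the tests through class 2. Nothing is therefore read from the shared direction or from counts that include them. For class 4 minus class 2 over both genotypes, 0 of 6 passed while 0.308% of all genes passed downward. For class 8 minus class 2, 0 passed and 0.0205% of all genes did, and for class 8 minus class 4, 0 passed and 0% of all genes did in either direction. At an unadjusted p under 0.05, 3 members were lower in class 8 than in class 2, Serpina1a, Serpina1d and Serpina1e, against 6.07% of all genes, and 0 were higher, against 1.29%. For class 4 minus class 2, 0 members had such a p in either direction, against 10.5% of all genes lower and 3.14% higher, and for class 8 minus class 4 likewise 0, against 2.89% lower and 3.69% higher. Serpina1d had the largest of these differences (-3.38, SE 1.01, limma adjusted p = 0.48, exact permutation p = 0.0143).

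Within TGA no member passed between classes either. In class 4 all 4 TGA libraries were below all 4 of class 2 for Serpina1e (difference -3.20, SE 1.73, limma adjusted p = 0.385) and for Serpina3k (-2.79, SE 1.64, limma adjusted p = 0.432), with an exact permutation p of 0.0286 each. That pattern was common, found for 6.4% of all genes. The difference of Serpina1b for class 4 was -5.34 (SE 1.68, limma adjusted p = 0.104), with 0.841% of all genes and 0 members past the threshold downward. Those 41 calls became 1 with the number of genes recorded as a covariate, 4 with a pseudocount of 10 normalised counts and 0 with no filter. With 1 TGA number left out there were between 1 and 7. They became 48 with a prior that does not follow the mean level and 63 with the replicate number as a block. Without the 4 fullest libraries 84 of 3939 genes tested passed, Serpina1b among them (limma adjusted p = 0.0443). At an unadjusted p under 0.05, 3 members were lower in class 4 (Serpina1b, Serpina1c and Serpina1d) and 0 higher, against 12.4% and 2.42% of all genes. In class 8, Serpina1d was below all class 2 libraries in TGA (-5.45, SE 1.42, limma adjusted p = 0.137, exact permutation p = 0.0286), as were 2.56% of all genes, and 0 members and 0% of genes passed. At an unadjusted p under 0.05, 3 members were lower in class 8 (Serpina1a, Serpina1c and Serpina1d) and 0 higher, against 5.91% and 1.23% of all genes. Serpina1a and Serpina1c had entered the tests through class 2. Serpina1d was above 0 in 4 TGA libraries of class 2, 2 of class 4 and 1 of class 8. Nothing is therefore read from these counts or from those for class 4. TGA libraries of class 4 also recorded fewer genes, with a median of 2650.5 genes above 0, against 4328.5 in TGA class 2. With that number as a covariate, the class 4 difference in TGA was -3.97 for Serpina1b, -2.58 for Serpina1e and -2.12 for Serpina3k.

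In WT 0 members and 0% of genes passed for class 4 or class 8 minus class 2. At an unadjusted p under 0.05 there were 0 members in either direction, against 2.93% of genes lower and 1.7% higher in class 4, and 2.71% lower and 2.15% higher in class 8. The difference of Serpina3k between class 4 and class 2 was 2.52 in WT and -2.79 in TGA. Tested as an interaction, these differed by -5.31 (SE 2.32, unadjusted p = 0.0267, limma adjusted p = 0.767). The largest such value belonged to Serpina1b at -6.36 (SE 2.38, limma adjusted p = 0.767). No member (0 of 6) and 0% of all genes passed for the interaction of either class with genotype, and at an unadjusted p under 0.05 3 members were below 0 for class 4 (Serpina1b, Serpina1d and Serpina3k), against 4.76% of all genes, and 1 for class 8 (Serpina1d), against 2.46%. None (0) were above 0, against 1.58% and 1.6% of all genes. Serpina1b and Serpina1d had entered the tests through TGA, so nothing is read from these interaction counts.

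Other genes around the family were read from lists. Of the 19 other genes of the cluster, all were in the table and 2 were tested, Serpina4-ps1, a pseudogene by its name (difference 1.41, SE 0.82), and Serpina12, known as vaspin (0.64, SE 0.77), and 0 passed for TGA minus WT over all classes. Both were above 0 in 3 WT libraries and more TGA libraries. Of 11 serpins of plasma and liver outside the cluster, 5 were tested and 0 passed. Among them Serpinf2, the plasmin inhibitor alpha-2-antiplasmin, was above 0 in 12 TGA and 10 WT libraries (difference 2.18, SE 1.04, limma adjusted p = 0.526). Serpinc1, antithrombin, differed by 1.70 (SE 0.95), Agt, the angiotensin precursor, by 1.004 (SE 0.88) and Serpinf1 by 0.31 (SE 0.82).

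Of 26 listed plasma inhibitors of other families, 13 were tested and 0 passed. Their differences had a median of 1.78, against 0.11 over all tested genes, and 3 of the 13 were above 0 in fewer than 4 WT libraries, which favours a positive sign. Itih3, an inter-alpha-trypsin inhibitor heavy chain, differed by 3.06 (SE 1.11) and Ahsg, fetuin-A, by 3.09 (SE 1.07). Pzp, a broad-range inhibitor of the alpha-2-macroglobulin family, differed by 2.21 (SE 1.08) and Kng1, kininogen, by 1.78 (SE 1.08), and limma adjusted p-values of the 4 were between 0.286 and 0.596. Of 16 proteases of plasma, liver and neutrophils, 8 were tested and 0 passed (median difference 1.03). Among the 8, 1 was above 0 in fewer than 4 WT libraries. Values were 2.29 (SE 1.07) for Hpn, the membrane protease hepsin, 2.08 (SE 1.04) for F2, prothrombin, 0.54 (SE 1.13) for Plg, plasminogen, and 0.19 (SE 1.04) for F10. The neutrophil proteases Elane, Prtn3 and Ctsg did not reach the tested set.

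Of 20 regulators known for liver genes of this kind, 15 were tested (median difference 0.70) and 0 passed. Among these 15, 4 were above 0 in fewer than 4 WT libraries, which favours a positive sign. Cebpa, a liver-enriched transcription factor, differed by 1.16 (SE 1.06), Cebpb by -0.01 (SE 1.06), Prox1 by 1.63 (SE 1.02) and Nr1i2, the pregnane X receptor, by 0.03 (SE 0.80). Of 26 genes for folding, export and disposal of secreted proteins in the endoplasmic reticulum, 15 were tested and 1 rose, Hyou1, a chaperone (4.70, SE 1.09, limma adjusted p = 0.00939). In this list 5 of the 15 tested were above 0 in fewer than 4 WT libraries. Hsp90b1, the chaperone GRP94, differed by 3.36 (SE 1.10, adjusted p = 0.224), Os9 by 1.66 (SE 1.07) and Mia3, a cargo receptor, by -0.48 (SE 1.07).

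Of 20 hepatocyte markers tested, 4 rose in TGA over all classes, where 0.246% of all tested genes passed upward: Alb, albumin (5.64, SE 0.98, limma adjusted p = 8.2e-05), Apoa1 (3.71, SE 0.43), Cps1 (4.66, SE 0.97) and Trf, transferrin (1.61, SE 0.40). In all, 19 of the 20 had a positive difference, against 54.7% of all tested genes, and 4 of the 20 were above 0 in fewer than 4 WT libraries. The summed hepatocyte marker level had a median of 14.56 in TGA (range 11.90 to 15.32), against 11.48 in WT (10.52 to 14.61). The summed endothelial level, of 10 markers of which 7 were above 0 in some TGA and 9 in some WT library, ranged from 0 to 7.88 in TGA and from 0 to 7.36 in WT. The summed level of 9 stellate cell and fibroblast markers had a median of 0 in TGA (highest 6.83), against 2.93 in WT (highest 6.81), was at 0 in 7 TGA and 3 WT libraries, and drew on 5 markers in TGA and 9 in WT. The summed macrophage level was at 0 in 9 TGA and 8 WT libraries and reached 4.93 in TGA and 7.28 in WT, and the neutrophil level was at 0 in 11 TGA and 7 WT libraries and reached 1.19 in TGA and 5.45 in WT. The lymphocyte level reached 4.29 in TGA and 6.63 in WT, the cholangiocyte level 6.84 in TGA and 3.81 in WT, and the erythroid level 1.77 in TGA and 0.41 in WT. The part of these in the serpin difference was not tested.

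Genes with the most similar pattern over the 24 libraries were found by Spearman's rho among the genes tested, as a description. For the summed Serpina1 level these were Selenbp2 (0.92), Ces3a, a liver carboxylesterase (0.91), Gjb1, the gap junction protein connexin 32 (0.88), Alb (0.87) and Itih1 (0.87). For Serpina3k they included Ctsl, cathepsin L (0.83), the non-coding RNA Firre (0.83), Srsf5 (0.82) and F2 (0.80). Between the members themselves rho was 0.81 for Serpina1e with Serpina3k, 0.77 for Serpina1e with Serpina1b and 0.50 for Serpina1e with Serpina1a. These libraries share the genotype difference and the number of genes recorded. Within genotype, rho between Serpina1e and the number of genes above 0 was 0.61 in TGA and 0.10 in WT, and for Serpina1b it was 0.56 in TGA and 0.71 in WT (12 libraries each).

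The genotype difference was recomputed under each alternative for the 3 members with the highest means. The value stayed above 0 for Serpina1e (3.21 to 6.35), Serpina3k (2.43 to 5.001) and Serpina1b (1.86 to 4.53) in all alternatives run, while the adjusted p fell on both sides of the threshold for each. Serpina1b entered the test through TGA, so nothing is read from its sign. All alternatives reuse the same libraries. The highest values of Serpina1e and Serpina3k came without the fullest libraries, where WT number 1 was left with class 8 alone, at 0.

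**Figure D4:**
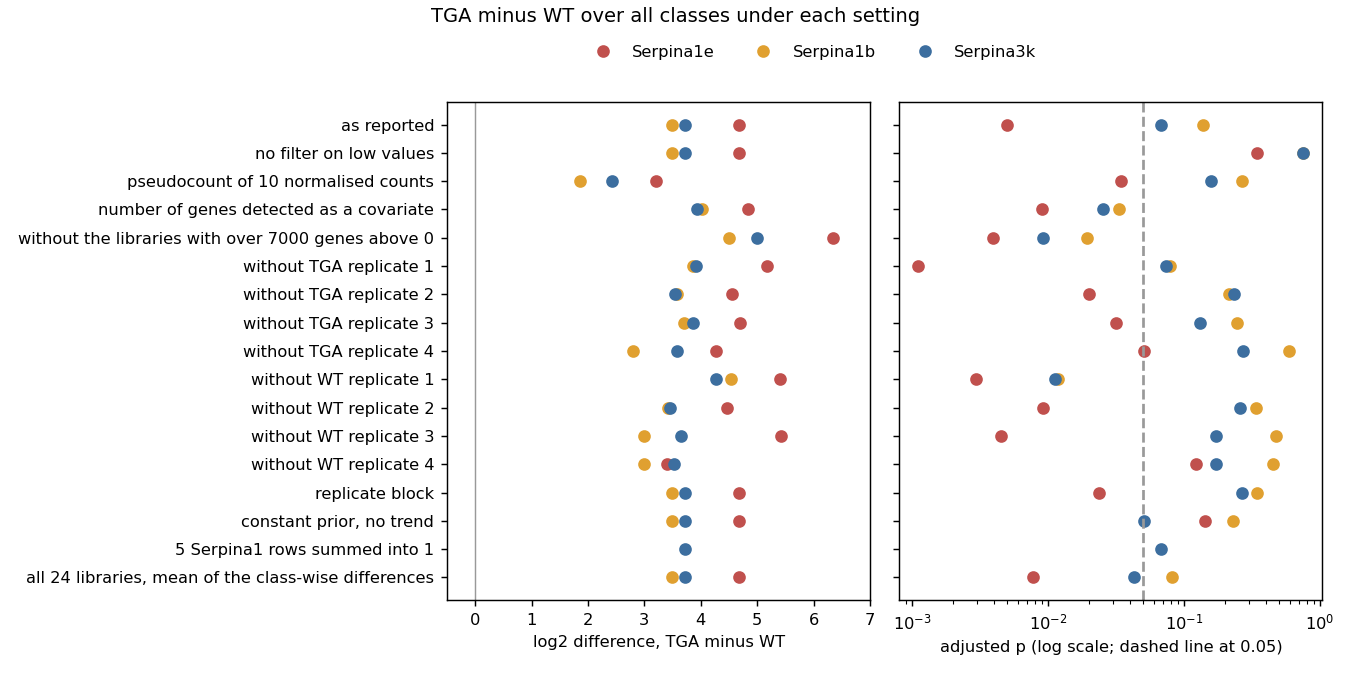
log2 difference of TGA minus WT over all classes (left x axis) and its limma adjusted p (right x axis, log scale, dashed line at 0.05) for Serpina1e, Serpina1b and Serpina3k, with a row for each way of processing; rows with the Serpina1 copies summed hold Serpina3k alone. Differences lie above 0 throughout, and Serpina1e passes in 11 of 15 alternatives, Serpina3k in 4 of 16 and Serpina1b in 3 of 15. Serpina1b entered the test through TGA, so its sign is not read.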

How the data were processed

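The deposited table gives 1 value per gene symbol and library. Per the labels' protocols, RNA was purified with a kit for fixed, embedded tissue, and NuGen libraries were read from 1 end over 75 bp. TopHat, edgeR and build mm9 are named, per the submitters' processing notes, with their versions, the counting program and the normalization not given in the sources used here. The deposited values were taken to be natural log values of a quantile-normalised count plus 1. This was inferred from the values: 20 of 24 libraries share the highest value, and in the 2 fullest libraries 942 and 655 genes share 1 low level (to within 1e-09). They were divided by the natural log of 2. A difference on this scale can understate the change of low genes. It can also be enlarged where values are at 0 and the lowest recorded level is high. The most frequent value above 0 ran from 0.0595 normalised counts (WT number 1, classes 2 and 4) to 20.8 (TGA number 2, class 4). With a pseudocount of 10, the TGA minus WT difference over all classes was 3.21 for Serpina1e and 1.86 for Serpina1b.

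The 4875 genes that reached a value of 1 in 4 or more libraries entered the tests. limma 3.58.1 (R 4.3.3) used a prior that follows the mean level, with 1 mean per group over 24 libraries, or 4 number means per genotype for the comparison over all classes, with Benjamini-Hochberg adjustment over all genes and a threshold of 0.05. It was tested on simulated data. Named list genes are those past the threshold over all classes, otherwise up to 4 with the highest mean. Members, lists and tests were chosen with earlier results of these data known. Alternatives changed the filter, pseudocount, prior, covariate, replicate block and libraries. Reading frames were aligned with mafft 7.526, and identity of promoters was counted with Biopython 1.88. No gene coordinates of the files' build are printed. One gene with a pattern like that of Serpina3k is not reported here.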

Additional observations from a re-analysis of the deposited data

Results flagged for a closer look

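Single libraries stood apart from the other 3 of their group, by a gap to the next value that exceeded Dixon's 95% critical share of the group's range, in 16 of the 37 sets of 4 values that were not all equal. For continuous values chance gives about 1 in 20, a rate that does not hold for sets with values at 0. In 11 of the 16 the other 3 libraries were listed at 0, so that 1 library alone recorded the gene.

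WT number 1 was the high library for Serpina1a (4.70), Serpina1b (6.90), Serpina1c (2.44) and Serpina1d (5.25) in class 2, and for Serpina1a (0.61) and Serpina1c (3.97) in class 4. Both of these libraries had over 7000 genes above 0. TGA number 4 was the high library for Serpina1b (7.06) and Serpina1c (3.82) in class 4 and for Serpina1c (4.21) in class 8. TGA number 1 was high for Serpina1a in class 4 (6.89), and TGA number 3 for Serpina1d in class 8 (0.41).

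TGA number 1 was the low library of class 2 for Serpina1b (5.54), Serpina1c (0), Serpina1d (3.30), Serpina1e (8.50) and the summed Serpina1 level (9.03), while it held the highest Serpina1a of that class. It also had the fewest genes above 0 of the TGA class 2 libraries, 2816. Whether that number has a part in these values was not tested.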

How the results depend on the processing

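The number of members past the threshold for TGA minus WT over all classes was 1. It became 0 with no filter on low values and with a constant prior, 3 with a covariate for how many genes a library recorded, 3 without the 4 fullest libraries (those with more than 7000 genes above 0), and 2 in the fit to all 24 libraries, and it ranged from 0 to 3 when 1 genotype and number was left out. Without the fullest libraries WT number 1 was left with class 8 alone, where every member was listed at 0. Each count of 3 over all classes included Serpina1b, which entered the test through TGA. In class 2 the number of members past the threshold was 0, became 1 without the fullest libraries, and ranged from 0 to 4 with 1 number left out. In class 8 it became 2, and for class 4 minus class 2 in TGA 1, both without those libraries. The causes were not tested, except that the filter changed how many genes were tested (21390 without it). Counts in the other 9 comparisons were 0 throughout. Over all genes, TGA minus WT over all classes gave 24 calls, 42 with the covariate, 97 without the fullest libraries, 9 with no filter and 5 with a constant prior. With 1 genotype and number left out there were between 10 and 100. In class 2 there were 5 calls over all genes, 15 without the fullest libraries, and between 0 and 68 with 1 number left out. Without the fullest libraries there were 31 in class 8 and 84 for class 4 minus class 2 in TGA, against 1 and 41 with them. With the replicate number as a block, Serpina1e kept its call (adjusted p = 0.0238, limma), 17 genes were called and no other member's call changed. The numbers were not taken as pairs in the main fits. Same-numbered libraries of a genotype correlated over 0.1 in 2 of 24 pairs (highest 0.43). Libraries of a genotype with other numbers did so in 2 of 72 pairs (highest 0.12). Same-numbered libraries may be related, and the class comparisons treat them as independent. Read depth is unknown, and values at 0 limit every copy other than Serpina1e.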
